A study of Owenia fusiformis with 11 samples.

Results

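The larval plateau peaks of the annelid Owenia fusiformis were 699 regions of open chromatin in which both larvae, the mature mitraria and the competent larva, had a higher accessibility signal than both embryonic stages and about the same signal as each other. They were chosen by the accessibility values themselves, in 8 ATAC-seq libraries. A peak was kept if its mean over the 8 libraries was at least 100, and it was a member if the lowest of its 4 larval libraries was at least 1.5 times the highest of its 4 embryonic libraries and the ratio of the competent to the mature mean was above 0.71 and below 1.4. The table held 63732 consensus peaks, and the members made up 1.47% of the 47582 that passed the minimum mean. In all, 1029 peaks had the larval excess. Of these, 314 were still rising in the competent larva (ratio of 1.4 or more) and 16 were falling back (0.71 or less).

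ATAC-seq uses the Tn5 transposase to cut and tag DNA that is not packed in nucleosomes or other proteins, so a peak marks a stretch of accessible chromatin. Such stretches are mostly promoters and enhancers, where transcription factors bind, and enhancers in particular open and close as tissues form. The mitraria is the planktonic, feeding larva of oweniid annelids, which swims with a long ciliary band and later grows a trunk rudiment that becomes the body of the juvenile at metamorphosis.

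The libraries came from gastrulae 9 h after fertilization, embryos in axial elongation at 13 h, mature larvae at 27 h and competent larvae at 3 weeks, with 2 replicates per stage that the study describes as biological. Each library was made from the pooled cells of many whole embryos or larvae, obtained by in vitro fertilization from wild-collected adults. No stage carried a genetic change or an agent, and older larvae had been fed with algae. The assay is bulk, so that a higher signal can mean more cells with the region open or a more open region in each cell, and these cannot be told apart. Cell type markers were not checked, because peaks were not tied to genes here.

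The values were a signal per consensus peak that the authors normalized between libraries. Taking the lowest value above 0 as 1 read, the libraries held approximately 7999520 reads (competent replicate 1) to 44830670 reads (elongation replicate 2) in consensus peaks, and the median member rested on approximately 1176 reads in competent replicate 2 and 144 reads in gastrula replicate 2. The sequencing platform of both competent libraries, shared with 1 gastrula replicate, differed from that of the mature ones, so between the larvae platform and stage cannot be told apart. The peak lists called on single libraries had a conflict of labels, because the files for gastrula samples were named after elongation and the files for elongation samples after the gastrula. The 748 peaks called higher at elongation in the accessibility table were on more gastrula-linked than elongation-linked lists in 498 cases (66.6%), and the opposite was seen in 0 cases. The gastrula-linked lists were longer, and for peaks not called these shares were 50.5% and 3.08%. Of the 310 peaks called lower at elongation, 69 (22.3%) were on more elongation-linked than gastrula-linked lists and 8 (2.58%) the other way round. Relative to peaks not called, the lists, taken by the samples they are linked to, went against the columns of the table, and the names they carry went with those columns. Directions between embryonic stages are given below by the names of the table columns, and lists by the samples they are linked to. If the column names and not the links were the ones exchanged, each difference between elongation and gastrula given below would have the opposite sign.

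Across the members the plateau was a lower signal at both embryonic stages, a step to the mature larva and little change after it. The median member had a signal of 263 in gastrulae, 344 at elongation, 747 in mature larvae and 801 in competent larvae (medians of the stage means over 699 peaks). By library, the medians were 254 and 277 in gastrulae, 335 and 364 at elongation, 765 and 736 in mature larvae and 803 and 792 in competent larvae. Across all 47582 kept peaks the medians lay between 221 and 267 in every library. In summed signal the median member was thus close to the median kept peak in the gastrula and well above it in the larvae. The members were wider, with a median of 1124 bp against 718 bp, and the signal sums over the width of a peak. The signal levels were what the members were chosen by and are given as a description, without a test.

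**Figure D1:**
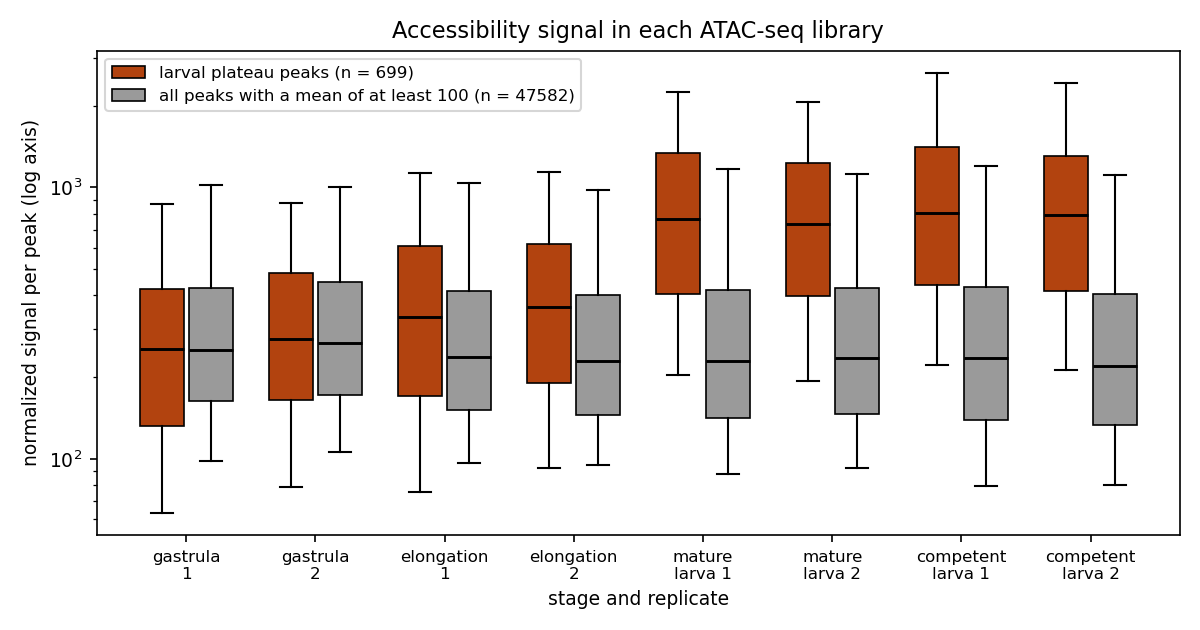
Normalized signal per peak (log axis) in the 8 libraries for the 699 larval plateau peaks (orange) and all 47582 peaks with a mean of at least 100 (grey). Boxes span the quartiles with the median as a line, and whiskers the central 90% of peaks. The orange medians are 736 to 803 in the larval libraries and 254 to 364 in the embryonic ones, while the grey ones stay between 221 and 267.

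The excess of larvae over embryos was moderate in most members. The larval mean was 2.43 times the embryonic mean at the median (quartiles 2.17 and 2.80), with a range of 1.64 to 5.88. It was between 2 and 3 in 513 members (73.4%), under 2 in 77, between 3 and 5 in 106 (15.2%) and at least 5 in 3. The mature larva alone was 2.10 times elongation and 2.63 times the gastrula at the median.

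Most members had signal in the embryo as well. The embryonic mean ranged from 41.2 to 1960, with a median of 314. It was under 50 in 6 members, between 50 and 100 in 64, between 100 and 500 in 435 and at least 500 in 194. The 64 members between 50 and 100 were narrow, with a median width of 433 bp, and the 194 members at 500 or more were wide, with a median of 1747 bp. Signal sums over the width of a peak, and width and level moved together in this way.

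Within the window set by the rule, the competent larva was more often above than below the mature larva. The ratio of the competent to the mature mean had a median of 1.08 (quartiles 0.960 and 1.20), against 0.927 over all kept peaks. It lay between 1.1 and 1.4 in 321 members (45.9%), between 0.9 and 1.1 in 268 (38.3%) and under 0.9 in 110 (15.7%). Both competent libraries were above both mature libraries in 281 members (40.2%), and 25% of all kept peaks showed that order. The opposite order was seen in 117 members (16.7%), against 39.9% of all kept peaks. The rule used this ratio, so nothing is read from these counts. The replicates of a larval stage differed by a median of 0.12 (mature) and 0.15 (competent) on the log2 scale, without sign, and those of the embryonic stages by 0.17 (elongation) and 0.28 (gastrula).

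**Figure D2:**
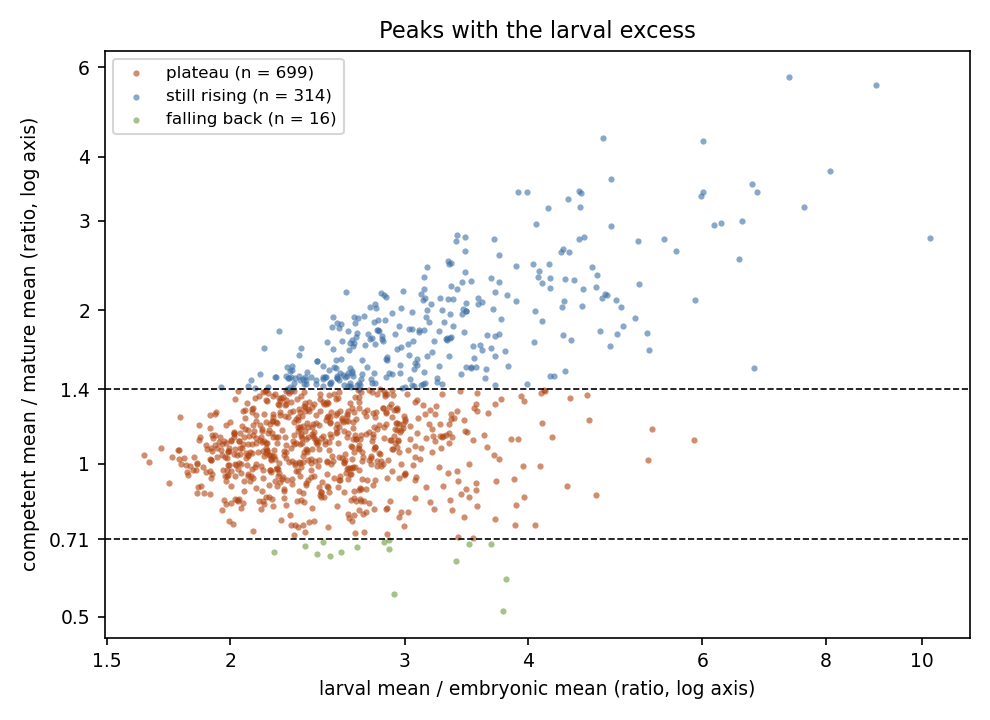
Ratio of the larval to the embryonic mean (x, log axis) against the ratio of the competent to the mature mean (y, log axis) for the 1029 peaks with the larval excess, 1 point a peak. Dashed lines mark the window from 0.71 to 1.4 that separates the 699 plateau peaks from the 314 still rising above it and the 16 falling back below it. Plateau peaks reach a larval to embryonic ratio of 5.88 and rising peaks 10.2.

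The largest gap between larvae and embryos was in OFUS_peak_30458, a region of 1370 bp at positions 20389177 to 20390546 of scaffold 8. Its signal was 178 and 169 in gastrulae, 223 and 214 at elongation, 1030.3 and 898 in mature larvae and 1085 and 1169.8 in competent larvae. The lowest larval library was 4.02 times the highest embryonic one, and the 4 embryonic libraries lay close together.
The highest ratio of means was in OFUS_peak_15121 (scaffold 4, 17205762 to 17208047, 2286 bp), with 224 and 404 in gastrulae, 501 and 646 at elongation, 2698 and 2247 in mature larvae and 3045 and 2447 in competent larvae. Its larval mean of 2609 ± 344 stood against an embryonic mean of 444 ± 177 (SD, n = 4 each). Here the embryonic libraries were spread, with both elongation values above both gastrula values.

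The other 4 peaks with the largest gaps covered both weak and moderate signals. OFUS_peak_22517 (scaffold 6, 15539078 to 15539324, 247 bp) was narrow and among the weakest members in summed signal, at 19.1 and 50.1 in gastrulae, 41.2 and 54.8 at elongation, 233 and 200.4 in mature larvae and 243 and 197 in competent larvae. Its value in gastrula replicate 1 was the lowest of any member there, and it was not on the peak list of competent replicate 1. OFUS_peak_35025 (scaffold 10, 9278246 to 9280198) had 172 and 165 in gastrulae, 183 and 194 at elongation, 606 and 610.4 in mature larvae and 795 and 817 in competent larvae. Both of its competent libraries were above both mature ones, and its ratio of 1.32 was near the top of the window. OFUS_peak_122 (scaffold 1, 1068879 to 1069982) had 143 and 174 in gastrulae, 262 and 280.4 at elongation, 861 and 917 in mature larvae and 875 and 879.6 in competent larvae, so that the larval stages overlapped. OFUS_peak_688 (scaffold 1, 4993231 to 4993760) had 66.1 and 92.7 in gastrulae, 80.6 and 96.2 at elongation, 286 and 302 in mature larvae and 324 and 308 in competent larvae.

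The members with the highest mean signal were accessible at every stage. OFUS_peak_23249 (scaffold 6, 20240801 to 20243107, 2307 bp) had the highest mean, with 1412 and 1402 in gastrulae, 2033 and 2188 at elongation, 5875 and 4292 in mature larvae and 6444 and 5738 in competent larvae. OFUS_peak_49411 (scaffold 17, 3578460 to 3581030) followed, with larval libraries between 4259 and 5592 and embryonic libraries between 1381 and 1842. OFUS_peak_59352 (scaffold 26, 2269434 to 2270945) and OFUS_peak_16766 (scaffold 5, 2362180 to 2364797) had means of 2848 and 2802, with larval means 1.91 and 2.50 times the embryonic ones. All 4 were on the peak lists of all 8 libraries, so for these the lists did not separate larvae from embryos.

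**Figure D3:**
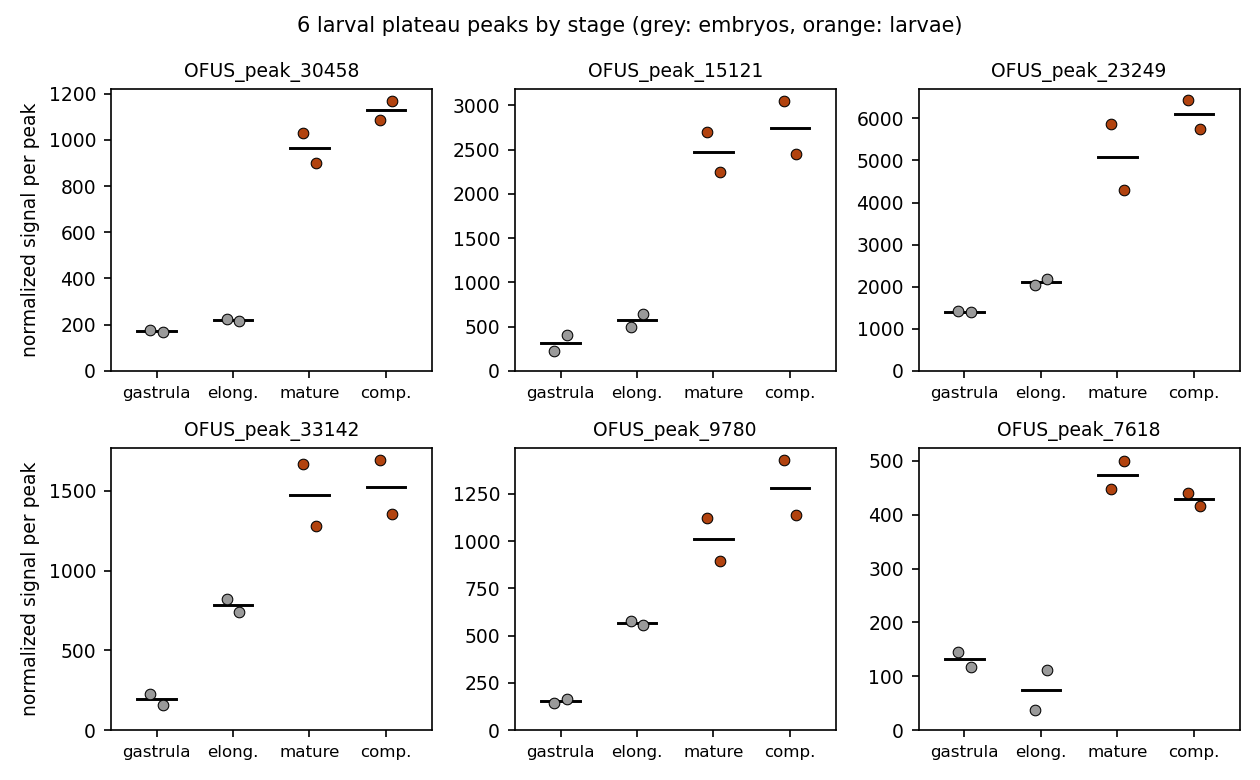
Normalized signal of 6 larval plateau peaks in each library (points, 2 per stage) with the stage mean (bar), gastrula to competent larva from left to right. The y axes start at 0 and differ in scale. In OFUS_peak_33142 and OFUS_peak_9780 the elongation libraries (740.0 and 824, 555 and 577) sit between those of the gastrula and the larvae. The embryonic libraries stay together at the bottom in OFUS_peak_30458 (169 to 223) and are more spread in OFUS_peak_7618 (37.5 to 146).

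Elongation was tested against the gastrula, a direction that the rule did not use and that rests on the names of the table columns. The values tested were nonetheless the ones that the rule used. In limma, with p-values adjusted by Benjamini-Hochberg and called under 0.05, 115 of the 699 members (16.5%) were higher at elongation, and over all 61869 peaks fitted the share was 1.21%. None was lower (0 of 699, and 6 at an unadjusted p under 0.05), against 0.501% of all peaks. The spread in the fit came from all stages, larvae included. Members had a smaller standard error of the change than all fitted peaks (medians 0.179 and 0.246) and a higher mean signal (medians 549 and 186). Both make a call easier to reach, so the shares called are not independent of the choice of members. The size of this part was not tested. At an unadjusted p under 0.05, 311 members were higher at elongation. The count of 115 fell to 6 when peaks at 0 in all libraries entered the fit, to 3 without elongation replicate 1 and to 0 of all peaks without elongation replicate 2, where the lowest adjusted p was 0.104. It was 54 without gastrula replicate 1, 33 and 37 without either mature replicate, and 46 and 75 without either competent replicate.

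The order of the libraries, read from the same values as the test, gave the same direction. It is another description of them and not separate support, and all 115 called members had it. Both elongation libraries were above both gastrula libraries in 420 members (60.1%), where 14.4% of all kept peaks had this order. They were below in 23 members (3.29%), against 34.9%. Among the 9251 kept peaks with a mean of at least 500, where the precision is better, 28.2% had elongation above the gastrula in this way and 5.52% were called higher by limma.

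The median change of the members was 0.34 on the log2(value + 1) scale, elongation over gastrula, and 598 of the 699 fitted values (85.6%) were above 0. Over all fitted peaks the median was −0.14, so relative to the typical peak the members were 0.48 higher, and this distance was 0.48 with quantile normalization as well. By replicate number the members' median was 0.39 for replicate 1 and 0.30 for replicate 2. Across members the change was larger where the larval excess was larger, with a median of 0.12 in the 77 members under 2, 0.33 in the 513 between 2 and 3 and 0.64 in the 106 between 3 and 5. The gastrula and elongation values enter both quantities, so this order is a description.

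The peaks still rising in the competent larva had a smaller median embryonic change, a difference that was not tested. Of these 314 peaks, 17 (5.41%) were called higher at elongation and 1 lower, and both elongation libraries were above both gastrula libraries in 102 (32.5%). Their median change was 0.19 for replicate 1 and 0.11 for replicate 2. They were also weaker in the embryo, with a median embryonic mean of 182, against 314 for the plateau peaks, and the part of that lower signal in the smaller count of calls was not tested. Within the plateau peaks, elongation was above the gastrula in 60.9% of members with a competent to mature ratio under 0.9, in 59.3% of those from 0.9 to 1.1 and in 60.4% of those above 1.1. Of the 16 peaks falling back, 3 (18.8%) were called higher at elongation and 0 lower. Both elongation libraries were above both gastrula libraries in 8 of the 16 (50%), so the rise at elongation was not particular to the plateau peaks.

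**Figure D4:**
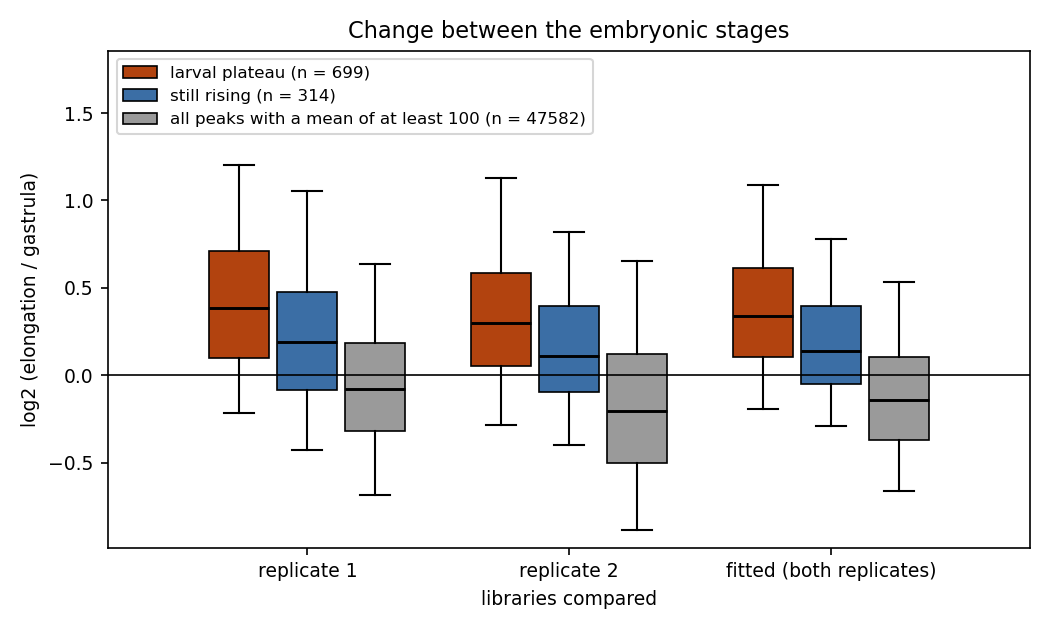
Log2 ratio of elongation to gastrula (y) for replicate 1, replicate 2 and the fit to both, in larval plateau peaks (orange, n = 699), peaks still rising (blue, n = 314) and all peaks with a mean of at least 100 (grey, n = 47582). Boxes span the quartiles with the median as a line, and whiskers the central 90%. The orange medians are 0.39, 0.30 and 0.34, the blue ones 0.19, 0.11 and 0.14, and the grey ones −0.08, −0.21 and −0.14.

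Among named members the largest excess of elongation over the gastrula was in OFUS_peak_33142 (scaffold 9, 14837955 to 14838621, 667 bp). Its signal was 824 and 740.0 at elongation, against 227 and 159 in the gastrula, and the larval libraries lay between 1282 and 1691. The log2 change was 2.03 (SE 0.19, limma adjusted p = 0.000564). The elongation values thus lay between those of the gastrula and the larvae. The gap to the larvae was required by the rule, and the peak was named for its gap to the gastrula. OFUS_peak_9780 (scaffold 3, 7961474 to 7962342) had 577 and 555 at elongation, against 142 and 167 in the gastrula, a change of 1.87 (SE 0.17, limma adjusted p = 0.000564), and 897 to 1427 in the larvae. OFUS_peak_31623 (scaffold 9, 4809990 to 4810621) was weaker, with 166 and 161 at elongation, against 47.1 and 54.1 in the gastrula, a change of 1.68 (SE 0.22, limma adjusted p = 0.00209). Each of the 3 lost its call when either elongation replicate was left out (limma adjusted p between 0.0589 and 0.114) and when peaks at 0 in all libraries entered the fit (0.0661 to 0.0791). All 3 were on both gastrula-linked lists and on neither elongation-linked list, the conflict of labels given above.

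The members furthest in the other direction did not pass the test. OFUS_peak_7618 (scaffold 2, 30638662 to 30639691) had 37.5 and 111 at elongation, against 146 and 118 in the gastrula, a log2 change of −1.01 (SE 0.35, limma adjusted p = 0.152). The change was −0.24 without elongation replicate 1 and −1.78 without elongation replicate 2. Its larval libraries, at 416 to 500.4, did not overlap with either embryonic stage, as the rule required. OFUS_peak_23958 (scaffold 6, 24912421 to 24912721) had a change of −0.76 (SE 0.34, limma adjusted p = 0.245) and OFUS_peak_13199 (scaffold 4, 4659034 to 4660361) one of −0.71 (SE 0.27, limma adjusted p = 0.182). With 1 library left out these ranged from −1.14 to −0.38 in OFUS_peak_23958 and from −1.18 to −0.24 in OFUS_peak_13199. In OFUS_peak_13199 the elongation replicates lay far apart, at 367 and 191, against 420.4 and 446 in the gastrula.

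Because the same values chose and described the members, the larval excess was also read in libraries that had no part in the choice. The rule applied to replicate 1 of each stage kept 47655 peaks and chose 1846, of which 637 were among the members. In replicate 2, the lower larval library was above the higher embryonic one in 1700 of the 1846 (92.1%), against 19.4% of the peaks kept on replicate 1. The excess was at least 1.5 in 830 (45.0%, against 3.61%), and the competent to mature ratio was inside the window in 1562 (84.6%, against 66.0%). In the reverse direction replicate 2 kept 47236 peaks and chose 1155, of which 659 were among the members. Of the 1155, 1124 (97.3%, against 24.7%) had larvae above embryos in replicate 1. The excess was at least 1.5 in 885 of the 1155 (76.6%, against 6.70%). The direction thus held in nearly all peaks chosen on 1 replicate, and the size of 1.5 in fewer of those chosen on replicate 1 than of those chosen on replicate 2. Chosen peaks that were also members met the fold in both replicates by the rule.

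At the edge of the rule, members and non-members had nearly the same values. OFUS_peak_27698, OFUS_peak_30431 and OFUS_peak_38107 were just inside, at a ratio of lowest larval to highest embryonic library of 1.501 to 1.502. OFUS_peak_48592, OFUS_peak_48693 and OFUS_peak_49406 were just outside, at 1.499. In OFUS_peak_27698 the lowest larval library was 983 and the highest embryonic one 655, and in OFUS_peak_48592 these were 1080.1 and 721. At the ends of the window, OFUS_peak_560 had the lowest competent to mature ratio, 0.714, with 307 and 221 in the competent and 412 and 327 in the mature larva. OFUS_peak_26390, at 1.397, had 294 and 168 in the competent and 169 and 162 in the mature larva, so that 1 competent library carried the rise.

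The peak lists that the authors called on single libraries gave another summary of the same reads. The rule chose members by high larval and lower embryonic values from those reads, so the shares on the lists are a description. Of the 699 members, 94.7% and 94.4% were overlapped by the lists of the mature larva and 92.6% and 99.7% by those of the competent larva, against 49.9%, 55.7%, 40.9% and 56.1% of all kept peaks. In the lists linked to the embryonic samples the members were less often covered than other peaks, at 65.1% and 80.0% for the gastrula-linked lists (85.6% and 92.7% of all kept peaks) and 37.3% and 28.2% for the elongation-linked lists (67.7% and 50.5%). The lists differed in length, from 39906 peaks for competent replicate 1 to 133993 for the gastrula-linked replicate 2, so shares are compared within a list.

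All 4 larval lists held 590 members (84.4%), against 27.2% of all kept peaks. Of these, 59 (8.44% of members, against 0.311% of kept peaks) were on no embryonic list. OFUS_peak_35025 and OFUS_peak_7618 were among them. Another 160 members (22.9%, against 18.3%) were on all 8 lists. Members on no embryonic list numbered 125 (17.9%, against 4.82% of kept peaks), and 2 members (0.286%, against 55.0%) were on more embryonic than larval lists. Of the 314 peaks still rising, 188 (59.9%) were on all 4 larval lists and 138 (43.9%) on no embryonic list, so absence from the embryonic lists was not particular to the members.

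**Figure D5:**
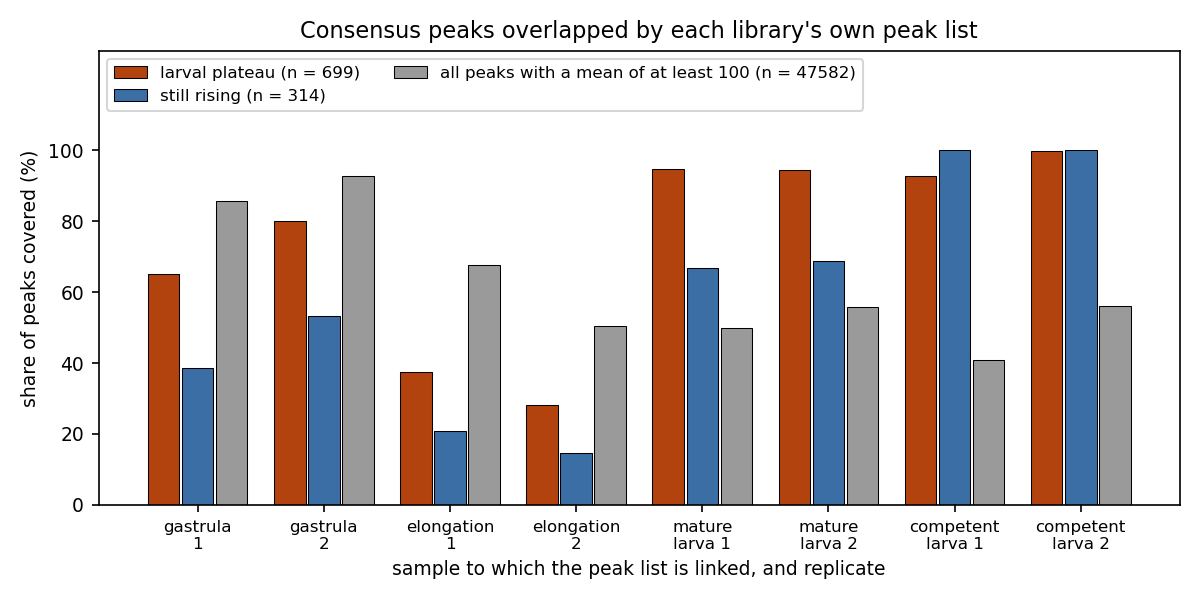
Share of consensus peaks (%) overlapped by at least 1 bp by the peak list of each library, for larval plateau peaks (orange, n = 699), peaks still rising (blue, n = 314) and all peaks with a mean of at least 100 (grey, n = 47582). Bars are grouped by the sample a list is linked to. Orange bars reach 92.6% to 99.7% in the 4 larval lists, where grey bars reach 40.9% to 56.1%, and are below the grey bars in the 4 embryonic lists.

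The summits, the points of highest signal within a listed peak, lay at distances between the larvae that were close to those of other peaks. The best peaks of the competent and mature lists had summits a median of 102 bp (replicate 1) and 103.5 bp (replicate 2) apart within a member, against 95.5 and 105 bp in all kept peaks. Summits of the replicates of 1 stage were 57 bp apart in the competent larva, 84.5 bp in the mature larva, 119 bp in the elongation-linked lists and 33 bp in the gastrula-linked lists. The members' mature summits were 176 and 179 bp from the elongation-linked ones (261 and 197 members), against 109 and 133 bp in all kept peaks. They were 134 and 127 bp from the gastrula-linked ones (450 and 548 members), against at most 114 bp in all kept peaks. Only peaks on both lists of a pair enter these distances, so they do not describe all members. Members were wider than other peaks, and the part of their width in these distances was not tested.

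The members were wide peaks. Their median width was 1124 bp (quartiles 747 and 1536.5), against 718 bp for all kept peaks (quartiles 451 and 1126) and 910.5 bp for the peaks still rising. The widest, OFUS_peak_12278 (scaffold 3, 26933428 to 26936892), spanned 3465 bp, with larval libraries between 1426 and 1637 and embryonic libraries between 687 and 818. Its larval summits lay within 798 bp of each other. Per kb of width the mature signal was a median of 685 in members, against 351 in all kept peaks, which is a description, since the rule used the mature values. Width was not used by the rule, but wider peaks hold more reads. Members also had a higher mean signal than all kept peaks (medians 549 and 243), and widths were not compared at like signal.

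Members lay closer to each other than other peaks lay to them. Within 10 kb of another member were 123 of the 699 (17.6%, exact 95% interval 14.8% to 20.6%, counting error only). Nearness between members is mutual, so they do not count independently and the interval is too narrow. A member was that close to 4.22% of the other kept peaks and 15.9% of the peaks still rising. The median distance to the nearest member was 134 kb for members and 256 kb for other kept peaks. Members also lay in denser surroundings, with 95.1% of them and 90.8% of all kept peaks within 10 kb of any other kept peak.

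Peaks next to members shared part of the pattern. Neighbours were the kept non-members directly before or after a member in the order of consensus peaks, at any distance. These 1080 peaks had a median larval to embryonic ratio of 1.07 (quartiles 0.821 and 1.55), against 0.891 for the rest of the kept peaks (quartiles 0.716 and 1.19). Their median change, elongation over gastrula, was 0.02 on the log2 scale, against −0.15. Most members were nonetheless single, with 630 flanked by no other member in the order of consensus peaks, 30 pairs and 3 runs of 3.

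The 3 runs were on scaffolds 1, 2 and 10. On scaffold 2, OFUS_peak_6575, OFUS_peak_6576 and OFUS_peak_6577 filled positions 22271013 to 22275284, with gaps of 706 and 807 bp between them. OFUS_peak_6577 (1721 bp) was the widest of the 3 and the highest in summed signal, with 289 and 405 in gastrulae, 447 and 693 at elongation, 1478 and 1345 in mature larvae and 1685 and 1499 in competent larvae. OFUS_peak_6575 (299 bp) had 92.8 and 141 in gastrulae, 169 and 177 at elongation, 552 and 455 in mature larvae and 783 and 599 in competent larvae. With OFUS_peak_6581 and OFUS_peak_6582 these made 5 members among 8 kept peaks in 33.6 kb, whose median larval to embryonic ratio was 2.91.

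On scaffold 10, OFUS_peak_35280, OFUS_peak_35281 and OFUS_peak_35282 lay between 12404771 and 12409061, with larval means 2.34, 2.203 and 2.49 times the embryonic ones. Between the larvae they did not move alike, since the competent to mature ratio was 1.18, 0.850 and 1.09. On scaffold 1, OFUS_peak_1672 was a strong peak of 2252 bp, with larval libraries between 1915 and 2329.8 and embryonic libraries between 548 and 738. Its neighbours OFUS_peak_1673 and OFUS_peak_1674 were far weaker in summed signal, with larval means of 273 and 378, and narrower, at 488 and 722 bp.

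Other dense stretches held members spread among peaks without the pattern. On scaffold 4, positions 17073711 to 17242106 held 6 members among 25 kept peaks, OFUS_peak_15121 among them. On scaffold 15, positions 6523337 to 6700225 held 6 members among 30 kept peaks. Members were found on 33 of the 40 scaffolds. Over the 25 scaffolds with at least 500 kept peaks, members made up a median of 1.41% of kept peaks, from 0.409% on scaffold 27 (3 of 733) to 2.41% on scaffold 16 (25 of 1036).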

How the data were processed

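ATAC-seq was analysed in 8 libraries, 2 for each of 4 stages, and groups and replicate numbers came from the labels. The deposited accessibility signal per consensus peak was made by the authors from reads trimmed, mapped with NextGenMap, freed of duplicates and shifted for Tn5. The authors called peaks per library with MACS2 2.2.7.1, kept replicated peaks outside repeats, merged them with DiffBind and normalized reads with DESeq2. The deposited peak lists gave fold enrichment (a ratio to local background) and the −log10 q-value, also by the authors, called on single libraries. The build is not given in the sources used here; positions are 1-based on the scaffolds of the table. Not used were 2 accessibility columns of other samples and all 27 expression columns, of which 24 belong to other samples and 3 to the RNA-seq samples, 26 columns of other samples in all.

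Elongation was tested against the gastrula on the log2(value + 1) scale with limma 3.58.1 (R 4.3.3), in 1 model of 4 stage means with a mean trend, over the 61869 peaks not at 0 in all 8 libraries (1863 were). Fold changes understate those of low peaks. P-values were adjusted over all fitted peaks. The test was tried on simulated data first. Lists were joined by an overlap of at least 1 bp. The members, tests and lists were chosen with earlier results of these data known. Named peaks were those with the 6 largest gaps between lowest larval and highest embryonic library, the 4 highest means, the 3 largest elongation changes in each direction with both replicates on 1 side, the 3 nearest each threshold, the widest and the 3 longest runs. Alternatives were other minimums, folds, windows, pseudocounts, normalizations and overlaps, and leaving out libraries. Analyses tried after seeing the data were leaving out each list, and each library for the width, in turn.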

Additional observations from a re-analysis of the deposited data

How the results depend on the processing

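The member count of 699 was 135 with a fold of 2 and 1490 with stage means in place of single libraries, and 729 to 996 with 1 library left out. Under quantile normalization it was 652, of which 536 were also members in the main analysis. The 115 members called higher at elongation became 6 when peaks at 0 in all libraries entered the fit, in which 38 peaks were called in all, and 0 to 117 with 1 library left out: 3 and 0 without elongation replicates 1 and 2, 54 without gastrula replicate 1, 33 and 37 without mature larva replicates 1 and 2, and 46 and 75 without competent larva replicates 1 and 2. In these fits no member was called lower. The members' median log2 change of 0.34 was 0.47 with quantile normalization and 0.26 to 0.44 with 1 library left out, and it was above that of all fitted peaks each time. The sources used here pair replicates by fertilization for RNA-seq samples and say nothing of this for ATAC-seq; the deviations of same-numbered gastrula and elongation libraries correlated at 0.24. With the number as a replicate block 160 members were called. Larval lists covered 95.4% of members on average (93.9% to 96.3% with 1 list left out), 79.6% where at least 50% of the consensus peak had to be covered and 86.2% at a −log10 q of at least 5. Embryonic lists covered 52.6% (43.5% to 60.8%), and 15.4% with the stricter overlap. Members within 10 kb of another member (17.6%) were 10.7% within 5 kb and 34.5% within 50 kb. The median width of 1124 bp was 1217 bp with a minimum mean of 200 and 1056 to 1124.5 bp with 1 library left out.

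There were 2 libraries per stage, the count of calls between the embryonic stages moved with the peaks and libraries in the fit, and reads were known only approximately. Members with an embryonic mean under 100 gave 0 calls. Whether the sequencing platform, which differed between the gastrula replicates, moved these values was not tested.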
